A study of Mus musculus with 4 samples.

Results

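The 83 protein-coding histone genes of the deposited count table were examined in mouse embryos at the 2-cell stage. They were taken from its 53715 rows by symbol, as the Hist1h to Hist4h, H2af, H3f3 and H1f genes of GENCODE M21 together with Cenpa. Of these, 67 were replication-dependent genes (Hist symbols), 15 were replacement variants and 1 was H1foo, the linker histone of the oocyte. A further 9 rows with the same symbols, annotated as pseudogenes or as antisense, were left out. The 4 libraries came from poly(A) RNA of whole C57BL/DBA2 embryos. Zygotes taken from the oviduct had been injected with 20 μM of a control small interfering RNA (siNC, 2 libraries, called control) or of an siRNA to SPENH0335 (2 libraries, called knockdown), and all were cultured in KSOM, an embryo medium. The series' title places SPENH0335 among enhancer-derived RNAs. No row of the table carries that name, so the knockdown itself was not checked here. The labels do not say how many embryos entered a library or whether libraries came from separate collections, so a p-value here reflects no more than library-to-library spread, possibly a technical one.

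Histones package DNA into nucleosomes, which hold H2A, H2B, H3 and H4, while H1 binds the linker DNA between them. Replication-dependent genes lie in clusters, lack introns in their classical form and are transcribed mainly in S phase, and their mRNA typically ends in a stem-loop that binds SLBP in place of a poly(A) tail. Replacement variants are encoded by separate genes, usually with introns and polyadenylated mRNA, and enter chromatin outside replication as well. The oocyte stores histone mRNA and protein for the first cleavages, and H1foo is the linker histone that it supplies. A library made from poly(A) RNA reads replication-dependent mRNA only as far as it enters such a library, and message without a tail was not measured. In whole embryos, fewer embryos and less RNA per embryo also cannot be told apart.

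The annotated 3′ ends separated the classes. The stem-loop was searched as GGNNCTTNTNAGNNCC on the sense strand of each gene's GENCODE M21 transcripts, with all 6 stem pairs complementary (G with T allowed). It was present in 46 of the 67 replication-dependent genes (68.7%), in 1 of the 15 replacement variants (H2afx) and in 19 of the 21868 other protein-coding genes (0.0869%), and H1foo had none. Stem-loops of 7 genes are shown because they include abundant cluster members that carry one, a frequent form for each core histone, and the single replacement variant. Capitals mark the 16 bases of the stem and loop, with 5 bases of the transcript on either side.
Hist1h2bj: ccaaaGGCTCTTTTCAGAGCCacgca
Hist1h2bk: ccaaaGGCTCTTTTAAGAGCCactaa
Hist1h2ao: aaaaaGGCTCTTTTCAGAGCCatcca
Hist1h3f: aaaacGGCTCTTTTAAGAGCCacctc
Hist1h4c: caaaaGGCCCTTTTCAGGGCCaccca
Hist1h4d: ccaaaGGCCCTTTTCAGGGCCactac
H2afx: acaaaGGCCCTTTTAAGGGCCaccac
The form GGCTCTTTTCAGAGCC was the most frequent, in 26 genes of H1, H2A, H2B and H3. The form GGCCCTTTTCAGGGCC occurred in 7 genes, all of H4. The form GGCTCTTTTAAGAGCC, with an A in the loop, occurred in 6 genes of H1, H2B and H3. A poly(A) signal (AATAAA or ATTAAA in the last 50 bases of any transcript, sense strand) was found in 17 of the 67 replication-dependent genes (25.4%), in 11 of the 15 replacement variants and in H1foo, against 80.8% of the other protein-coding genes. Of the 21 replication-dependent genes without a stem-loop, 11 have models that hold the coding sequence alone. These models end before any stem-loop or poly(A) signal could be read. The same holds for 3 replacement variants without a signal, H2afb1, H2afb2 and H2afb3.

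The 100 bases before the start were also compared, for the 62 replication-dependent genes, 14 replacement variants and H1foo found in RefSeq's table. The promoters of the leading gene of each class are shown (RefSeq, GRCm38.p6), with capitals marking CCAAT or its reverse complement ATTGG, and TATAAA or its reverse complement TTTATA.
H1foo, plus strand, chr6:115944831-115944930: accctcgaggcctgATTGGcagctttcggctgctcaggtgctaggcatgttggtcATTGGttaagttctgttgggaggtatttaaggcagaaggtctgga
H3f3b, minus strand, chr11:116024505-116024604: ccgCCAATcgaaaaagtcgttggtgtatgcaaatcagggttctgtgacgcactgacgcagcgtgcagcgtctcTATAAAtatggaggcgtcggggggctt
Hist1h1a, plus strand, chr13:23763568-23763667: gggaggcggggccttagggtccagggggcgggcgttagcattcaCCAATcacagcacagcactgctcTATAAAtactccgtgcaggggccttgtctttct
The CCAAT letters, on either strand, were present in 75.8% of the replication-dependent promoters and in 7 of the 14 replacement promoters, against 21.6% of all 27025 promoters of the table. The TATAAA letters were present in 30.6% of the replication-dependent promoters, in 1 replacement promoter (H3f3b) and in 6.57% of all promoters. These matches are descriptions of letters in a window and show no binding.

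In this poly(A) RNA, message of the replacement variants and H1foo outweighed that of the clusters in every library. Message without a tail was not measured, so these shares are not those of all histone mRNA in the embryo. Levels are given as CPM, counts scaled to a common library size by the TMM method of edgeR. Levels of different genes are compared as CPM per kilobase of merged exons. On the per-kilobase scale the 15 replacement variants made up 57.3% and 54.1% of measured histone message in control and 57.2% and 52.0% in knockdown. H1foo alone made up 30.2% and 32.7% in control and 29.3% and 38.3% in knockdown. The 67 replication-dependent genes together made up 12.5% and 13.2% in control and 13.5% and 9.68% in knockdown. They include 3 variants known from testis (Hist1h1t, Hist1h2aa and Hist1h2ba). Their summed level averaged 239 CPM per kilobase in control and 228 in knockdown, and 209 and 196 without these 3. Levels were also divided by the length of the longest protein-coding transcript, a measure chosen after seeing the data. The mean shares over the 4 libraries were then 60.5% for replacement variants, 29.2% for H1foo and 10.3% for the clusters, so the order of the classes held. Of the 67 cluster genes, 34 have under 50% of their 50-base windows unique to them (median 45.9%), and 5 have none. The median was 92.0% for replacement variants and 100% for H1foo. Reads of the clusters may be lost to copies or shared among them, and the effect on the shares was not tested.

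Each histone type was led by a single gene in this poly(A) RNA where a replacement form exists. H1foo held 88.3% to 92.4% of linker histone message per kilobase over the 4 libraries. H3f3b, which encodes the replacement histone H3.3, held 85.0% to 88.7% of H3 message. H2afz, which encodes H2A.Z, held 52.3% to 57.9% of H2A message. The clusters accounted for 3.93% to 7.44% of the H1, 1.24% to 2.55% of the H3 and 23.6% to 31.0% of the H2A message per kilobase. By the length of the longest protein-coding transcript, H1foo held 89.0% to 92.9% of H1 and H3f3b 79.1% to 83.2% of H3 message. By that length H2afz held 64.2% to 69.2% and the clusters 17.0% to 22.9% of H2A message. The same genes led, but the size of these shares depends on the length used. The classes were set by symbol, and no H2B or H4 member falls among the replacement variants by that rule. All H2B and H4 message was therefore counted as replication-dependent. That includes Hist2h2be, whose annotated model has a poly(A) signal and no stem-loop.

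**Figure D1:**
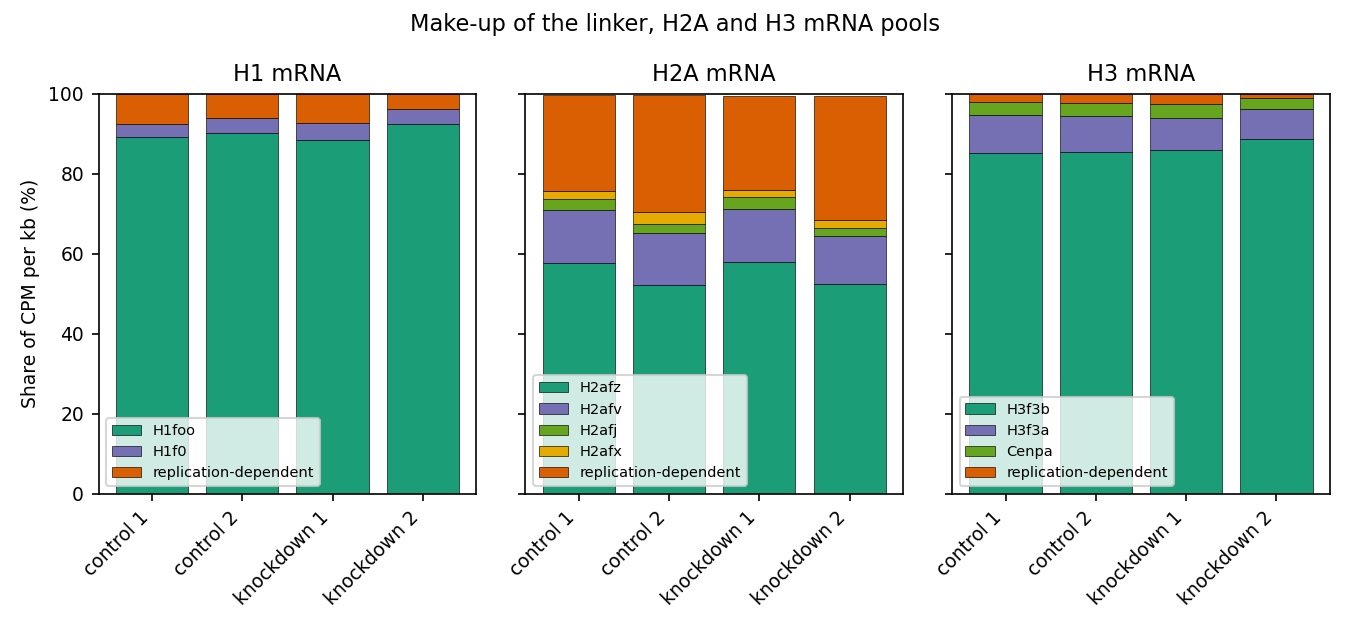
Stacked bars give the share of CPM per kilobase (%) within H1, H2A and H3 message in each of the 4 libraries, with replication-dependent genes summed in orange. Members that held under 1% of a type are not drawn. H1foo (88.3% to 92.4% of H1) and H3f3b (85.0% to 88.7% of H3) filled most of their bars, while H2A message was divided among H2afz, H2afv and the clusters.

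No histone gene passed the test of knockdown against control. Of the 83 members, 80 had a count in some library, and 70 passed the low-count filter (57 replication-dependent, 12 replacement and H1foo). With edgeR's quasi-likelihood test adjusted over 25565 genes, 0 of the 70 were called at an adjusted p under 0.05, and 0 genes of the table were called (0%). At an unadjusted p under 0.05, edgeR had 3 members higher in knockdown and 0 lower, beside 984 of all tested genes (3.85%), of which 1.56% were higher and 2.29% lower. These 3 members passed the low-count filter only through the knockdown libraries, so no lower value was possible for them. DESeq2 called 0 histone genes as well, with 49 of 29001 genes called in all (0.169%), and limma-voom called 0 histone genes and 0 genes in all. The smallest adjusted p of a named histone gene over every setting tried was 0.18.

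The fold changes of the tested members lay on both sides of 0. Of 70, 28 were above 0 and 42 below, with a median log2 fold change of -0.07, beside a median of -0.0025 and 49.7% above 0 over all tested genes. The values of the control and knockdown libraries did not overlap in 18 members, 11 higher and 7 lower in knockdown, beside 32.7% of all tested genes (15.6% higher and 17.1% lower). Precision differed widely among members, and the 95% interval of the fold change lay within 2-fold either way in 14 of the 70, beside 8126 of all 25565 tested genes. Members that passed the filter through counts in a single group had to differ, so these counts describe the tested genes alone.

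H1foo, the oocyte linker histone, measured 627 and 779 CPM in control and 652 and 976 CPM in knockdown. The highest value was that of knockdown replicate 2, and the first knockdown library lay between the controls, so the groups overlapped. The log2 fold change was 0.21 (SE 0.21, 95% interval -0.32 to 0.75, edgeR adjusted p = 0.9999). Without knockdown replicate 2 it was -0.10. Per kilobase, H1foo spanned 522 to 813 CPM per kilobase and H3f3b 683 to 831, so the first and second genes in this order overlapped over the libraries.

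The other linker histone variants were far lower. H1f0 encodes H1.0, a linker histone known for its accumulation in cells that have stopped dividing. It measured 40.9 and 54.8 CPM in control and 53.7 and 65.5 CPM in knockdown, which overlapped by the narrow gap between the second control and the first knockdown library. Its log2 fold change was 0.32 (SE 0.20, 95% interval -0.19 to 0.83, edgeR adjusted p = 0.9999), and 0.12 without control replicate 1. H1fx stayed under 1 CPM on average, and H1fnt, a testis linker histone, had 0 counts in all 4 libraries.

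Among H3 variants, H3f3a and H3f3b encode the same H3.3 protein, which HIRA and ATRX-DAXX complexes deposit and which the egg supplies to sperm chromatin after fertilization. H3f3b measured 2032 and 2142 CPM in control and 2058 and 2472 CPM in knockdown, with a log2 fold change of 0.12 (SE 0.11, 95% interval -0.15 to 0.38). Its groups overlapped, and without knockdown replicate 2 the value was -0.014. H3f3a measured 272 and 268 CPM in control and 229 and 239 CPM in knockdown. Both knockdown libraries lay below both controls, with a log2 fold change of -0.21 (SE 0.10, 95% interval -0.45 to 0.04). Neither gene passed the test (edgeR adjusted p = 0.9999 for both). Antisense annotations overlap H3f3a, and 72.9% of its 50-base windows occur in no other annotated gene, so its count is less certain than that of H3f3b (93.1%). Per kilobase, H3f3b was 683 to 831 and H3f3a 65.3 to 77.6, without overlap.

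Cenpa encodes the H3 variant that marks centromeres. It measured 145 and 164 CPM in control and 167 and 151 CPM in knockdown, with a log2 fold change of 0.04 (SE 0.12, 95% interval -0.27 to 0.35). The groups overlapped, and the interval lay within 2-fold either way. Cenpa held 2.74% to 3.53% of H3 message per kilobase of merged exons, below H3f3a at 7.29% to 9.67%. By the length of the longest protein-coding transcript it held 8.69% to 10.99%, and H3f3a 7.12% to 9.38%, so the order of the pair depends on the length used.

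The H2A variants shared a pattern over the knockdown libraries. H2afz encodes H2A.Z, which sits beside promoters, and measured 248 and 293 CPM in control and 334 and 198 CPM in knockdown. H2afv, its close relative H2A.Z.2, measured 52.2 and 66.1 CPM in control and 70.7 and 41.2 CPM in knockdown. H2afj measured 11.9 and 13.6 CPM in control and 17.4 and 8.41 CPM in knockdown. In each of these genes the first knockdown library was the highest of the 4 and the second the lowest, so the control values lay inside the knockdown range. H2afx, whose phosphorylated product marks DNA breaks, measured 6.66 and 12.5 CPM in control and 8.01 and 5.78 CPM in knockdown. H2afy, which encodes macroH2A1, measured 5.43 and 5.97 CPM in control and 5.87 and 5.25 CPM in knockdown. The log2 fold changes of these 5 genes were -0.02 for H2afz (SE 0.25), -0.08 for H2afv (SE 0.29), 0.02 for H2afj (SE 0.38), -0.47 for H2afx (SE 0.40) and -0.04 for H2afy (SE 0.30). All 5 overlapped between groups, and without control replicate 2 the value for H2afx was 0.049.

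**Figure D2:**
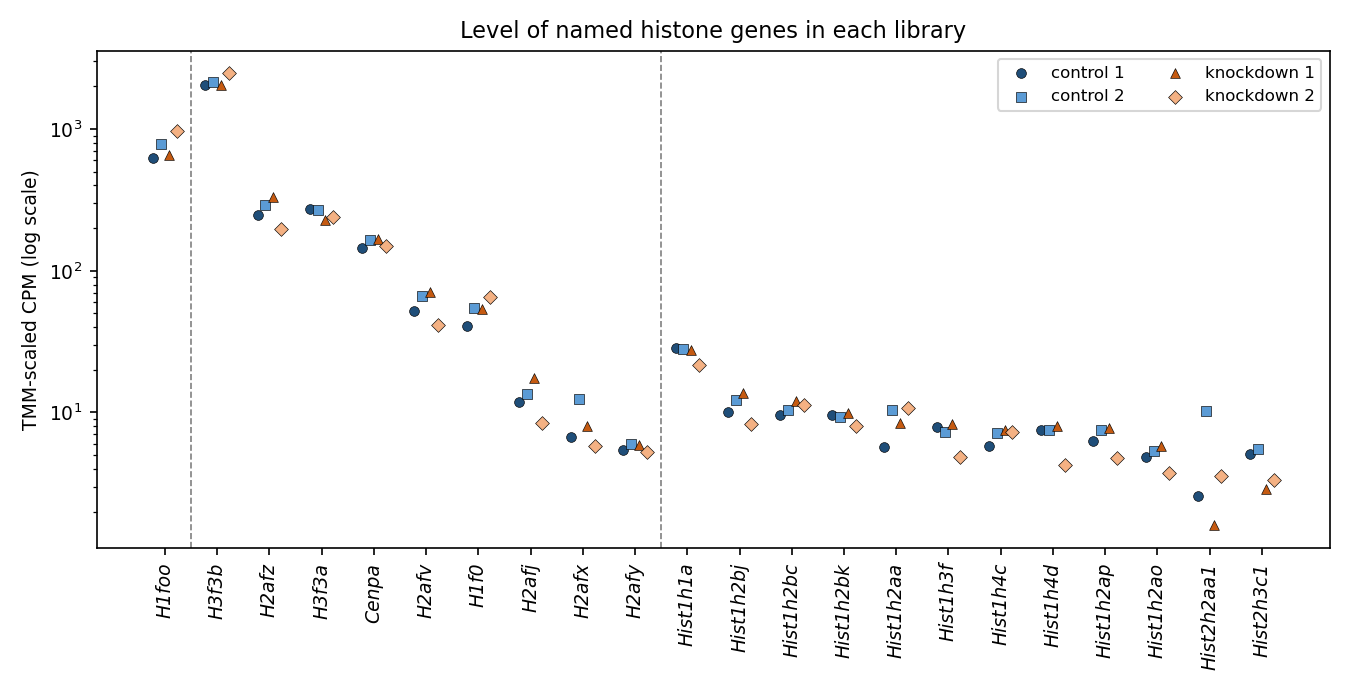
Points give the TMM-scaled CPM (log axis) of each named histone gene that averaged 1 CPM or more, in the 4 libraries, with dashed lines between H1foo, replacement variants and replication-dependent genes. H3f3b lay highest at 2032 to 2472 CPM, and H2afz, H2afv and H2afj had their highest and lowest values in the 2 knockdown libraries.

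The clusters were expressed at low levels in this poly(A) RNA, with a median of 0.82 CPM over the 67 genes and a maximum of 26.5. A mean of at least 1 CPM was reached by 30 of them and of at least 10 CPM by 3, Hist1h1a, Hist1h2bj and Hist1h2bc. Their summed level was 150 and 175 CPM in control and 171 and 135 CPM in knockdown, a mean of 162 ± 17.5 against 153 ± 25.1 (SD, n = 2 each). The log2 ratio of the means was -0.08, and it was 0.03 without control replicate 2 and 0.07 without knockdown replicate 2, so the sum had no stable direction. An exact permutation test of 2 against 2 libraries cannot give a p below 0.333, and no p is given for a sum over members.

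Within the clusters, H2A and H2B message were the largest fractions, with part of H2A from the testis variant Hist1h2aa. It averaged 22.7 CPM per kilobase over the 4 libraries, beside summed H2A of 75.4 in control and 71.3 in knockdown. Summed H1 was 43.7 and 39.8. Of replication-dependent message per kilobase, H2B made up 28.8% to 32.6%, H2A 26.9% to 35.4%, H1 16.8% to 20.2%, H4 11.4% to 13.4% and H3 5.65% to 8.25%. The large cluster on chromosome 13 holds 54 of the 67 genes and summed to 131 and 145 CPM in control and 150 and 118 CPM in knockdown. The chromosome 3 cluster of 10 genes summed to 12.9 and 23.3 CPM in control and 11.2 and 11.8 CPM in knockdown. Of the sum in control replicate 2, Hist2h2aa1 alone measured 10.2 CPM.

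Hist1h1a, which encodes the somatic linker histone H1.1, was the leading cluster gene. It measured 28.6 and 28.3 CPM in control and 27.8 and 21.5 CPM in knockdown. Both knockdown libraries lay below the controls, the first by less than 1 CPM, and the log2 fold change was -0.21 (SE 0.20, 95% interval -0.71 to 0.30, edgeR adjusted p = 0.9999). Without knockdown replicate 2 it was -0.028. It held 83.4% to 88.6% of replication-dependent H1 message per kilobase, and all of its 50-base windows are unique to it. No stem-loop or poly(A) signal is annotated in its model. Its level per kilobase, 29.0 to 38.6, overlapped that of H2afv, 25.2 to 43.3.

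Among H2B genes, Hist1h2bj measured 10.1 and 12.3 CPM in control and 13.8 and 8.25 CPM in knockdown, the knockdown libraries being the highest and the lowest. Hist1h2bc measured 9.59 and 10.4 CPM in control and 12.0 and 11.3 CPM in knockdown, both knockdown values above both controls. Its log2 fold change was 0.21 (SE 0.24, 95% interval -0.38 to 0.80), which did not pass the test. Hist1h2bk measured 9.66 and 9.29 CPM in control and 9.93 and 8.09 CPM in knockdown and overlapped between groups. Of the 50-base windows of Hist1h2bj and Hist1h2bk, 40.6% and 25.8% are unique, so part of their counts may come from near-identical copies or be lost to them.

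Of the H2A genes, Hist1h2aa encodes TH2A, a histone of testis and oocyte. It measured 5.68 and 10.5 CPM in control and 8.43 and 10.8 CPM in knockdown, with a log2 fold change of 0.25 (SE 0.38, 95% interval -0.69 to 1.20) and overlapping groups. Its divergent neighbour Hist1h2ba, which encodes TH2B, measured 3.43 and 3.26 CPM in control and 2.37 and 3.41 CPM in knockdown. Hist1h2ap measured 6.28 and 7.52 CPM in control and 7.76 and 4.77 CPM in knockdown. Hist1h2ao measured 4.89 and 5.33 CPM in control and 5.82 and 3.73 CPM in knockdown. For Hist1h2ap and Hist1h2ao, 6.93% and 6.50% of windows are unique, so their values cannot be separated from those of their copies.

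Copies on chromosome 3 had the largest drops among the named histone genes. Hist2h2aa1 measured 2.59 and 10.2 CPM in control and 1.59 and 3.54 CPM in knockdown, with a log2 fold change of -1.31 (SE 0.75, 95% interval -3.19 to 0.56), and -0.013 without control replicate 2. None of its windows is unique, and its copy Hist2h2aa2 had 84 counts in knockdown replicate 1 and 0 in the other libraries. Summed, the pair measured 2.59 and 10.2 CPM in control and 2.46 and 3.54 CPM in knockdown, so the first knockdown library lay just below the lower control and the second between the controls. Hist2h3c1 measured 5.09 and 5.55 CPM in control and 2.88 and 3.33 CPM in knockdown, without overlap, with a log2 fold change of -0.78 (SE 0.33, 95% interval -1.61 to 0.05, edgeR adjusted p = 0.9999). It too has no unique window. Summed with its copies Hist2h3c2 and Hist2h3b, it measured 8.58 and 9.41 CPM in control and 6.15 and 5.31 CPM in knockdown. These sums did not overlap between groups, as was the case for 32.7% of all tested genes. They contain Hist2h3c1, which was named for its small p, so they are not separate evidence.

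The leading H3 and H4 genes of chromosome 13 overlapped or differed little. Hist1h3f measured 7.90 and 7.24 CPM in control and 8.24 and 4.88 CPM in knockdown, the knockdown libraries again being the highest and the lowest. Hist1h4d measured 7.50 and 7.52 CPM in control and 8.0 and 4.26 CPM in knockdown, with the same order. Hist1h4c measured 5.83 and 7.13 CPM in control and 7.51 and 7.32 CPM in knockdown, both knockdown values above both controls. Their log2 fold changes were -0.21 for Hist1h3f (SE 0.35), -0.29 for Hist1h4d (SE 0.38) and 0.19 for Hist1h4c (SE 0.28).

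**Figure D3:**
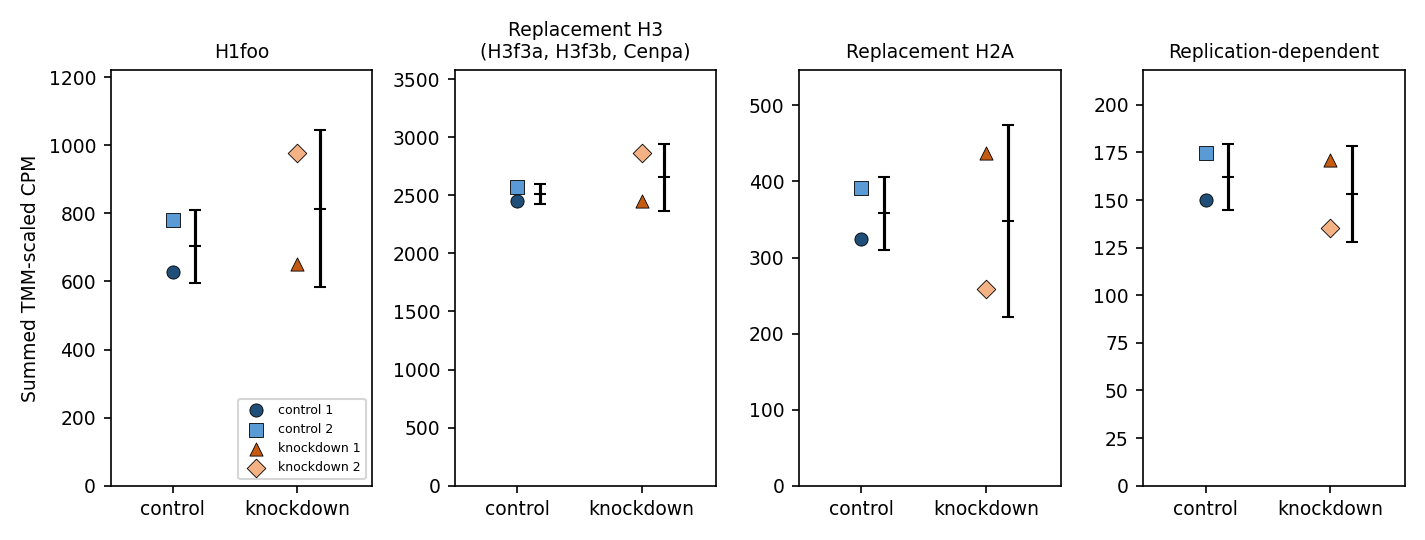
Points give the summed TMM-scaled CPM of H1foo, the replacement H3 variants, the replacement H2A variants and the replication-dependent genes in each library, with the mean and SD of the 2 libraries of a group beside them. In every panel the knockdown libraries lay further apart than the controls, with knockdown replicate 2 above replicate 1 for H1foo and H3 and below it for H2A and the clusters.

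The 3 members with the smallest p were all near absence in control and were tested only because of their knockdown counts, so their p and folds support no direction for histone genes. Hist2h2be, an H2B gene studied in olfactory neurons, had 0 and 2 counts in control and 32 and 90 in knockdown (edgeR unadjusted p = 0.022, adjusted p = 0.9999). H2afb1, a short H2A variant known from testis, had 0 and 0 counts in control and 24 and 12 in knockdown, at least 10.6-fold higher against a floor of 3 counts over the control group. Hist1h2bm had 0 and 0 counts in control and 11 and 14 in knockdown, at least 7.4-fold higher by that floor. All 3 stayed under 1 CPM in every library, and the floor covers counting error only. The related H2afb2 and H2afb3 had 0 counts throughout, and 56.2% of the windows of H2afb1 are unique. None of the 3 was past the threshold after adjustment.

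**Figure D4:**
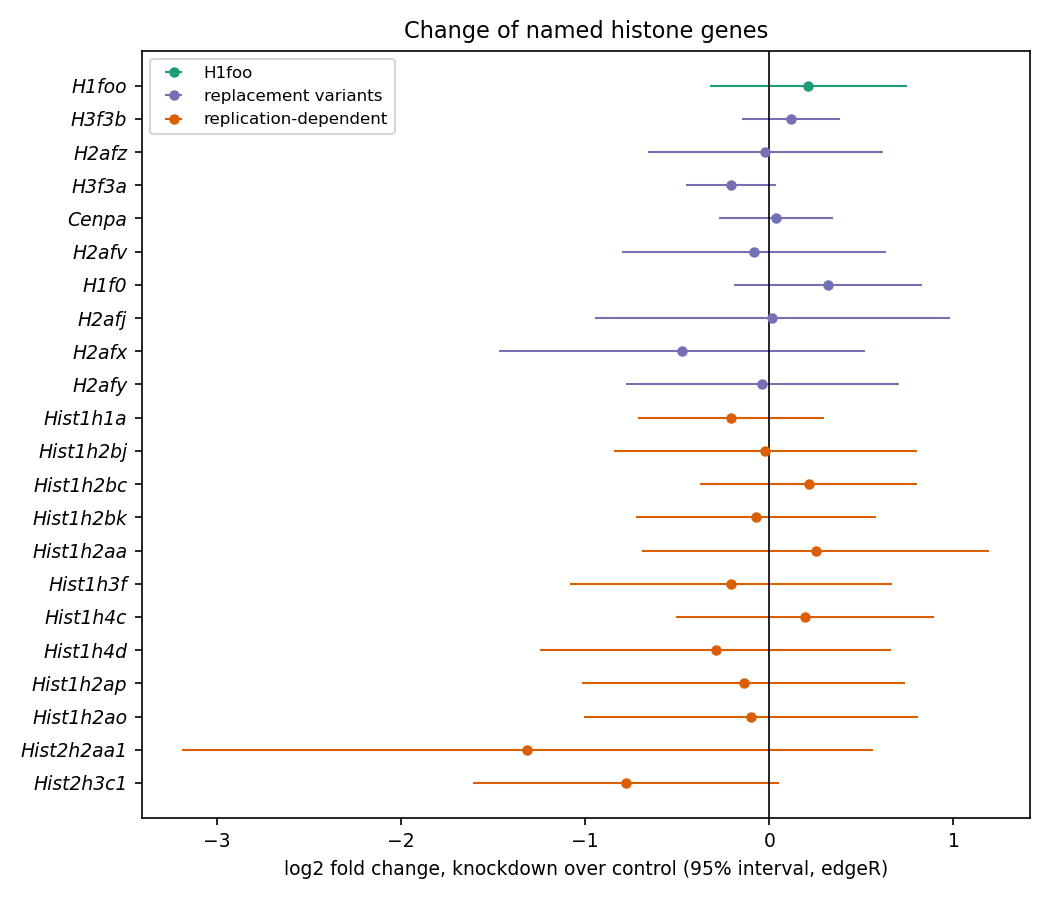
Points give the edgeR log2 fold change (knockdown over control) of the named histone genes that averaged 1 CPM or more, and bars its 95% interval. Every interval includes 0. Intervals were narrowest for H3f3a and H3f3b and widest for Hist2h2aa1, which reached from -3.19 to 0.56.

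The spread between the knockdown libraries was larger than the difference between groups. Over the 40 members that averaged 1 CPM or more, the controls differed from each other by a median of 0.18 (absolute log2 difference), the knockdown libraries by 0.48 and the group means by 0.20, beside 0.22, 0.37 and 0.20 over all 16121 genes of that level with a count in every library. The first knockdown library was the higher one in 28 of these 40 members, 22 of the 30 replication-dependent genes and 5 of the 5 replacement H2A genes, and the second was higher for H1foo and H3f3b. The controls were ordered as unevenly, the second being higher in 30 of the 40 members, 21 of the 30 replication-dependent genes and 5 of the 5 replacement H2A genes. Over all genes of that level, the first knockdown library was higher in 49.1% and the second control in 50.1%. This is a description of libraries with the same label, and the genes are not independent of each other.

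Annotated 3′ ends and level per kilobase were set side by side within the clusters. The median was 1.08 CPM per kilobase for the 46 genes with a stem-loop and 0.65 for the 21 without. It was 0.87 for the 17 genes with a poly(A) signal and 1.08 for the 50 without, whereas the medians not scaled by length stood in the opposite order (1.11 and 0.73 CPM). Genes whose model ends within 60 bases after the stem-loop (22 genes) had a median of 1.81, and genes whose model runs over 100 bases past it (23 genes) had 0.86. Models with a long end are longer by construction, so this difference depends on the annotated length: without scaling the medians were 1.04 and 0.89 CPM. Uniqueness differed along with these classes: 15 of the 21 genes without a stem-loop and 16 of the 22 with a short end have under 50% unique windows, against 3 of the 23 with a long end. Its part in these levels was not tested.

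**Figure D5:**
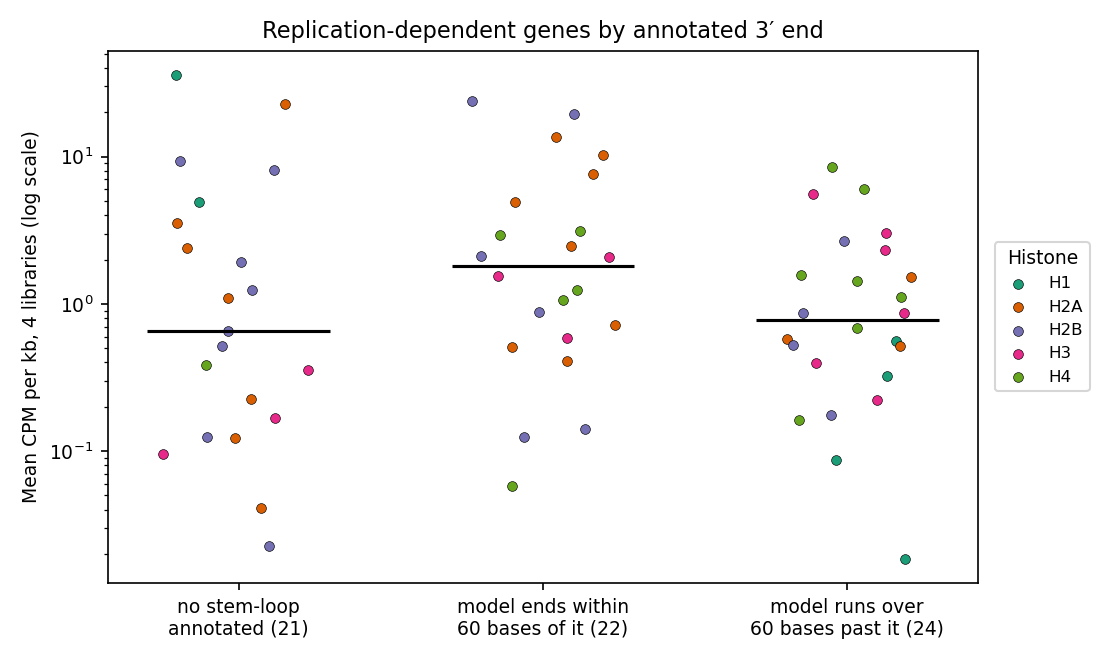
Points give the mean CPM per kilobase of merged exons over 4 libraries (log axis) of each replication-dependent gene, grouped by annotated 3′ end and coloured by histone type, with the median of each group as a bar and sideways scatter that carries no value. The 3 groups span overlapping ranges, with a median of 0.65 where no stem-loop is annotated and 1.81 where the model ends soon after it.

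Divergent H2A and H2B neighbours formed 12 pairs, with starts 176 to 306 bases apart. The H2B gene was the higher per kilobase in 5 pairs and the H2A gene in 7. This tally depends on annotated length: Hist1h2an and Hist1h2bp averaged 2.38 and 2.11 per kilobase, but 0.94 and 1.49 CPM. Per kilobase, Hist1h2bc averaged 9.36 beside 0.58 for Hist1h2ac, with 69.4% and 85.9% unique windows. Hist1h2bk averaged 19.4 beside 3.52 for Hist1h2ah, and Hist1h2ao 10.3 beside 0.65 for Hist1h2bq. In these last pairs 25.8% of the windows of Hist1h2bk, 7.87% of Hist1h2ah, 6.50% of Hist1h2ao and 2.68% of Hist1h2bq are unique, so these values cannot be separated from those of their copies. The size of the differences also depends on annotated length. Without scaling, Hist1h2bc averaged 10.8 CPM beside 1.44 for Hist1h2ac, and Hist1h2bk 9.24 beside 1.43 for Hist1h2ah. Hist1h2ao averaged 4.94 CPM beside 1.31 for Hist1h2bq.

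The genes that process histone mRNA did not pass the test either. Of 21 genes for processing and turnover, all tested, 11 were above 0 and 10 below, with a median log2 fold change of 0.05, and 0 had an unadjusted p under 0.05. Slbp, whose protein binds the stem-loop, measured 1467 and 1416 CPM in control and 1123 and 1734 CPM in knockdown, the knockdown libraries being the lowest and the highest. Casp8ap2, which encodes the FLASH protein of the 3′ processing complex, measured 699 and 710 CPM in control and 758 and 806 CPM in knockdown, with a log2 fold change of 0.15 (SE 0.08). Lsm10, a subunit of the U7 particle, measured 156 and 173 CPM in control and 156 and 160 CPM in knockdown. Zfp473, a zinc finger protein of the same machinery, measured 16.5 and 16.8 CPM in control and 22.4 and 20.2 CPM in knockdown, without overlap.

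Of 39 genes for histone chaperones and deposition, all tested, 23 were above 0 and 16 below, with a median log2 fold change of 0.03. At an unadjusted p under 0.05, 2 were higher and 1 lower, beside 1.56% higher and 2.29% lower of all tested genes, and none passed after adjustment with edgeR. Atrx, a partner of DAXX in H3.3 deposition, measured 687 and 709 CPM in control and 774 and 918 CPM in knockdown, with a log2 fold change of 0.28 (SE 0.11). Srcap, the remodeler that exchanges H2A for H2A.Z, measured 13.1 and 10.6 CPM in control and 7.99 and 5.25 CPM in knockdown, with a log2 fold change of -0.84 (SE 0.32). In both genes the groups did not overlap. The most abundant chaperone genes were Rbbp7, with 1812 and 1860 CPM in control and 1492 and 2419 CPM in knockdown, and Npm1, with 968 and 1016 CPM in control and 926 and 1009 CPM in knockdown, and both overlapped.

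Libraries held 78865491 to 99011109 counts and detected 29472 to 29876 genes. The 15 markers of the oocyte and 2-cell embryo were all detected and summed to 6931 and 7014 CPM in control and 6631 and 6763 CPM in knockdown. The sum hides opposite directions: the groups did not overlap in 11 markers, 4 higher and 7 lower in knockdown, beside 32.7% of all tested genes. At an unadjusted p under 0.05 (edgeR), 3 markers were higher and 1 lower, beside 1.56% higher and 2.29% lower of all tested genes. None passed after adjustment. Summed markers of cumulus and granulosa cells (11 of 12 detected, Inha at 0) ranged from 56.0 to 59.98 CPM in control and from 49.3 to 66.5 CPM in knockdown. Those of sperm (9 of 10 detected, Smcp at 0) ranged from 193 to 194 CPM in control and from 184 to 190 CPM in knockdown, mostly from Odf2 at a mean of 176 CPM. Those of blood, oviduct and stroma (11 of 13 detected, Hbb-bs and Col3a1 at 0) ranged from 118 to 123 CPM in control and from 95.2 to 122 CPM in knockdown. The groups did not overlap in 7 of 8 tested sperm markers (2 higher, 5 lower), beside 32.7% of all tested genes. They did not overlap in 4 of 10 for cumulus and granulosa (1 higher, 3 lower) and 5 of 11 for blood, oviduct and stroma (1 higher, 4 lower). At an unadjusted p under 0.05 (edgeR), 1 marker was lower in each of these other lists and 0 in sperm. None passed after adjustment. The highest cumulus or granulosa marker averaged 44.6 CPM. The part of other cells in the histone values was not tested.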

How the data were processed

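Poly(A) RNA of 2-cell embryos was sequenced from pre-amplified cDNA in 2 control and 2 knockdown libraries. The authors deposited raw counts, whole numbers for each Ensembl gene, which by their values are not normalized. Tools listed without a role, per the submitters' processing notes, are HISAT2 2.1.0, Trim Galore 0.6.5, CASAVA 1.8 and Picard 2.18.2, with the build mm10. The counting tool, annotation, strand setting and handling of duplicate and multi-mapping reads were not given in the sources used here, and reads of near-identical, overlapping or antisense genes may be split among them. Of 53715 rows, 53620 matched GENCODE M21 by identifier.

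Counts were fitted with edgeR 4.0.16 in R 4.3.3 (filterByExpr with a minimum of 10 counts, TMM scaling, quasi-likelihood F-test, two-sided, Benjamini-Hochberg over 25565 genes, threshold 0.05, no covariate). Each standard error is the fold change over the square root of F, and intervals are 95%. DESeq2 1.42.0, limma-voom (limma 3.58.1), RLE scaling, other low-count filters, a replicate block and leaving out each library were the alternatives. The script was tested on simulated counts, with changes planted only in genes of at least 10 CPM. Of the 83 members, 11 averaged that level, so the simulation does not cover most histone genes here. Pre-amplified reads carry no stated molecular identifiers, so floors (3 counts) cover counting error only. Levels per kilobase divide by merged exon length. Unique windows are 50-base stretches of a gene's transcripts that occur in no other annotated gene's transcripts.

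Named members were Cenpa, H1foo, the replacement variants with a mean of at least 1 CPM, the 10 highest cluster genes, the highest of each histone type and up to 3 with the smallest p in each direction. Of each list, the 3 highest genes and the 2 with the smallest p were eligible. Other members named as copies, as divergent neighbours or at 0 counts were chosen after their values were seen. The members and lists were chosen with earlier results of these data known. The values of 1 gene that the rule names are not reported here.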

Additional observations from a re-analysis of the deposited data

How the results depend on the processing

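With 2 libraries a group, small changes are not resolved, and counts of near-identical copies depend on read assignment that is not stated. No histone gene was called under any of the alternatives run, but the number called over all genes was 49 with DESeq2 and 0 to 3 when 1 library was left out. The replicate numbers carry no stated pairing, and replicate differences of the groups correlated at -0.090 over 25565 genes. With the replicate number as a block, 0 genes were called, 0 of them histone genes, and 479 had an unadjusted p under 0.05 against 984. Summed replacement variants had a log2 ratio of -0.053 without H3f3b, an alternative added after seeing the data, against 0.071 with it. Their share of histone message was 60.5% by longest transcript and 60.5% by longest protein-coding transcript, against 55.2%, and that of the clusters was 10.3% by the latter, against 12.2%. Of 233 alternatives for 25 single genes, 210 kept direction and side of the threshold and 23 changed sign, 11 of these without knockdown replicate 2. H2afj was -0.066 with limma-voom and -0.072 with the block. Leaving out 1 library at a time gave log2 ranges of -0.26 to 0.075 for the summed clusters, -0.11 to 0.47 for the H1foo level (-0.10 to 0.47 in the edgeR fit), -0.054 to 0.13 for Cenpa, -0.60 to 0.46 for H2afj, -0.52 to 0.26 for H2afv, -0.86 to 0.049 for H2afx, -0.12 to 0.048 for H2afy and -0.45 to 0.31 for H2afz. The ranges were -0.014 to 0.25 for H3f3b, -0.13 to 0.76 for Hist1h2aa, -0.45 to 0.19 for Hist1h2ao, -0.53 to 0.17 for Hist1h2ap, -0.44 to 0.31 for Hist1h2bj, -0.23 to 0.073 for Hist1h2bk, -0.63 to 0.13 for Hist1h3f and -0.82 to 0.098 for Hist1h4d. Hist1h1a (-0.40 to -0.028) and H1f0 (0.12 to 0.54) were among the genes that kept their sign with sizes that varied by more than 1.5 times. Another was Hist2h2aa1, whose drop nearly vanished without control replicate 2, as given above. The cause of these changes was not tested.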
